A study of Mus musculus with 2 samples.

Results

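The contractile genes of smooth muscle were read on arrays of whole mouse intestine from animals labelled Gde5 gutKO and from animals labelled wild type. The group holds 10 genes, Acta2, Actg2, Myh11, Mylk, Cnn1, Tagln, Smtn, Lmod1, Synpo2 and Des, chosen by name as the core of the contractile apparatus, with every gene probe that carries one of these names. They had 20 of the 41174 probes on the array, and 38 of its 43379 gene spots. The study had 2 dual-colour Agilent arrays with total RNA of male mice, 20 weeks old and on normal diet, and the dyes were swapped between them. The Gde5 gutKO animals are described as deficient in Gpcpd1 in the gut alone, and the other animals as wild type. In replicate 1 the knockout RNA was the Cy3 sample, and in replicate 2 it was the Cy5 sample. The series text gives 5 mice. Whether animals were pooled, whether both arrays used the same extracts, and which promoter drives the gut deletion are not given by the labels or series text.

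The outer wall of the gut is built of smooth muscle sheets that mix and move its contents, with interstitial cells of Cajal as pacemakers and enteric neurons as controllers. In these cells calcium bound to calmodulin activates myosin light chain kinase, which phosphorylates the regulatory light chain of myosin so that myosin pulls on actin filaments. The filaments are held at dense bodies and dense plaques, in a lattice with desmin. High expression of this gene set marks the contractile state of smooth muscle. Gpcpd1 encodes GDE5, an enzyme that frees choline from glycerophosphocholine, and the arrays ask how its loss from the gut changes transcript levels there. In bulk RNA of whole intestine, fewer muscle cells and less RNA per muscle cell cannot be told apart.

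The contractile genes were read with 60-base probes, and the sequences of 5 of them are shown because the values below rest on such short stretches of large and partly repeated families. Sequences and mm9 coordinates are those of the array's own design. The longest stretch that each shares, on the same strand, with an array probe of another gene name is in capitals. Every one of the 5 reads through in at least 1 frame without a stop.
Acta2, probe A_51_P450957, chr19:34322995-34326249, minus strand: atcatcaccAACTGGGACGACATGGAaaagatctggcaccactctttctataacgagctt
Myh11, probe A_51_P362429, chr16:14195223-14198147, minus strand: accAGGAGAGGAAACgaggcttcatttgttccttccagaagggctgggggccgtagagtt
Mylk, probe A_52_P575217, chr16:34996839-34996898, plus strand: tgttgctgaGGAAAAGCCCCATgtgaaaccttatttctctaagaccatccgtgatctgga
Tagln, probe A_52_P517683, chr9:45738916-45738975, minus strand: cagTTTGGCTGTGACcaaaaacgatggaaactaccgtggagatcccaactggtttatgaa
Smtn, probe A_51_P479786, chr11:3420834-3420893, minus strand: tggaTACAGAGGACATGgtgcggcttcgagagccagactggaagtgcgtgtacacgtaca
The Acta2 probe covers 3255 bases of mm9 and the Myh11 probe 2925, so both join stretches that lie apart in the genome. Over all 20 probes, the longest shared stretch ran from 12 to 17 of 60 bases, and the Acta2 probe above had the 17. Actins are near-identical in their coding parts, so RNA of one actin can bind a probe of another, and the 2 actin genes are uncertain one by one.

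The targeted gene did not check the labels. Gpcpd1 has 4 probes, 3 of them higher in knockout RNA on both arrays (log2 ratios of 0.65 and 0.29, 0.67 and 0.56, and 0.28 and 1.08 on the first and second array) and the last at -0.43 and 0.17. Which part of the gene was deleted is not known from the labels, and a probe outside it checks nothing, so directions are known only through the dye labels, and RNAs are called knockout and wild type as they were labelled. Spots well above background made up 75.3% and 70.3% of all gene spots for knockout RNA on the 2 arrays, and 69.3% and 76.1% for wild type RNA. Across all genes the ratios of the arrays had a Pearson correlation of -0.38, which describes 2 dye-swapped arrays on 1 slide and is no test.

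Contractile genes were plainly present in both RNAs. Of their 20 probes, 19 were well above background for both genotypes on both arrays and were tested. The exception was the Mylk probe A_51_P272407, made from a cDNA clone, which passed that mark in Cy3 alone on each array. No member spot was marked as an outlier or saturated. Intensities are normalised values in arbitrary units, and since probes differ in binding, levels are compared within a probe and never between probes. The arrays were normalised singly and not scaled to each other, so levels are also compared only within an array. Ratios are log2 values of knockout RNA over wild type RNA, with the mean ± SD over the 2 arrays (n = 2). P-values are those of limma, adjusted by Benjamini-Hochberg over all probes tested. They rest on how far 2 hybridisations lie apart, with the variance of each probe drawn toward that of all probes. The prior had 3.04 degrees of freedom against 1 residual degree of freedom. The spread between the arrays may be technical and includes any dye difference, and precision is limited by having only 2 arrays.

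None of the 10 genes was called different between the genotypes. By limma 0 of the 19 member probes were called at an adjusted p under 0.05, as were 0 of all 29047 probes (0%), and each member probe had an adjusted p of 1.00. At an unadjusted p under 0.05 there were 0 member probes, beside 353 of all probes (1.22%), and the smallest member p was 0.064. No member probe passed 1.5-fold toward the same genotype on each of the arrays, beside 49 of all probes (0.169%). The mean that lay farthest from 0 was 1.26-fold, at Synpo2. With the brightest probe of each gene, 1 gene was higher on both arrays (16.9% of all 18988 genes were), 1 was lower on both (18.1%) and 8 went opposite ways. The median of the 10 genes' log2 ratios was -0.018, against -0.010 over all genes. Counts this near the background are no result about the contractile genes, and no direction common to them was measured.

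**Figure D1:**
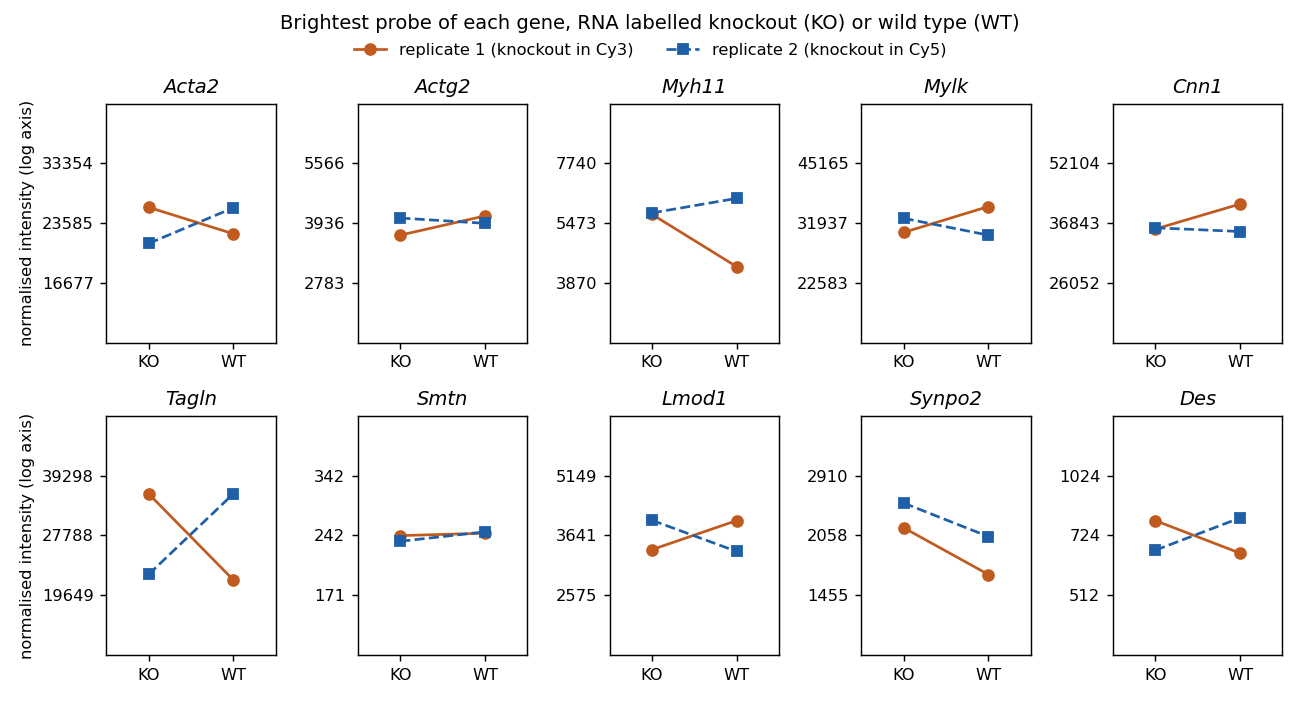
Normalised intensity (log axis, arbitrary units, each panel spanning a 4-fold range) of the brightest probe of each contractile gene in the RNA labelled knockout (KO, left) and wild type (WT, right), with 1 line per array. The lines cross or slope opposite ways in 8 of the 10 genes, while Synpo2 is higher in KO on both arrays and Smtn is lower in KO on both.

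Both smooth muscle actins had ratios that changed sign with the dye. Acta2 encodes the alpha actin of vascular and visceral smooth muscle, and its brightest probe, A_52_P420504 (chr19:34316060-34316119), stands at 10 places on each array. It averaged 25845 in the RNA labelled knockout and 22160 in the RNA labelled wild type in replicate 1. In replicate 2 it averaged 20958 in the RNA labelled knockout and 25778 in the RNA labelled wild type. Acta2 was thus brighter in whichever RNA carried Cy3, and the mean log2 ratio was -0.04 ± 0.37 with a 95% confidence interval from -0.55 to 0.47. Its 4 other probes lay between -0.08 and 0.18 in the mean, and their directions did not match. Probe A_52_P644232, made from another cDNA clone of the locus, was higher in knockout on both arrays (0.07 and 0.30), and A_52_P239556 was lower on both (-0.12 and -0.03). Actg2, the gamma actin that makes up much of the actin in gut muscle, had 3671 in the RNA labelled knockout and 4104 in the RNA labelled wild type in replicate 1. In replicate 2 Actg2 had 4053 in the RNA labelled knockout and 3930 in the RNA labelled wild type. Its mean ratio was -0.06 ± 0.15, with an interval from -0.45 to 0.33.

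Neither the motor nor its kinase was called. Myh11, the heavy chain of smooth muscle myosin, had 5759 in the RNA labelled knockout and 4248 in the RNA labelled wild type in replicate 1. The same probe had 5806 in the RNA labelled knockout and 6318 in the RNA labelled wild type in replicate 2. The mean was 0.16 ± 0.40, with an interval from -0.37 to 0.69. Its levels are compared only within each array, where knockout RNA was higher in replicate 1 and lower in replicate 2. Mylk, the light chain kinase, has 2 bright probes that lean opposite ways. A_52_P575217, the brighter, had 30256 in the RNA labelled knockout and 35160 in wild type RNA in replicate 1, and 32839 in knockout and 29778 in wild type in replicate 2. A_52_P145912 had ratios of 0.10 and -0.18 where A_52_P575217 had -0.22 and 0.14, so the probes of 1 transcript had opposite signs within each array. Both Mylk probes nevertheless averaged -0.04 over the swap, with intervals from -0.47 to 0.40 and from -0.44 to 0.37.

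Among the proteins that bind actin filaments, Tagln differed most between the arrays. Tagln encodes transgelin (SM22 alpha), an actin-binding protein abundant in smooth muscle. Its probe A_51_P450527 (chr9:45738097-45738156) had 35390 in the RNA labelled knockout and 21459 in the RNA labelled wild type in replicate 1. In replicate 2 it had 22174 in the RNA labelled knockout and 35408 in the RNA labelled wild type. The ratios of 0.72 and -0.68 are the 1 case in each array where a member probe passed 1.5-fold, in opposite genotype directions. In terms of dye this Tagln probe was at least 1.5-fold brighter in Cy3 both times, as the only 1 of 19 member probes with such a dye difference, beside 244 of all probes (0.84%). Its mean was 0.02 ± 0.99, and its interval, from -1.004 to 1.05, is the widest of the group. A_52_P517683, whose sequence is above, had the same signs at 0.42 and -0.43. Both Tagln probes stand toward the ends of the array grid, in rows 528 and 60. The part of array place in their ratios was not tested.

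Cnn1, calponin, binds actin and slows the myosin motor. It had 35594 in the RNA labelled knockout and 41158 in wild type RNA in replicate 1, and 35851 in knockout and 35082 in wild type in replicate 2. Its mean was -0.09 ± 0.17, the lowest among the brightest probes of the 10 genes. Smtn, smoothelin, an actin-associated protein of contractile smooth muscle, was the 1 gene lower on both arrays. It had 241 in the RNA labelled knockout and 245 in wild type RNA in replicate 1, and 234 in knockout and 247 in wild type in replicate 2. The mean was -0.05 ± 0.04, with an interval from -0.41 to 0.31, so that the direction is shared but the size is small. Lmod1, leiomodin, which starts new actin filaments in smooth muscle, had 3354 in the RNA labelled knockout and 3971 in the RNA labelled wild type in replicate 1. In replicate 2 Lmod1 had 3977 in the RNA labelled knockout and 3318 in the RNA labelled wild type, and its mean was 0.01 ± 0.36.

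Synpo2, synaptopodin 2, an actin-binding protein of muscle also called myopodin, was the 1 gene higher on both arrays. Its brightest probe, A_52_P948080 (chr3:122779807-122779866), had 2152 in the RNA labelled knockout and 1640 in the RNA labelled wild type in replicate 1. The same probe had 2484 in the RNA labelled knockout and 2045 in the RNA labelled wild type in replicate 2. The mean ratio was 0.34 ± 0.08, 1.26-fold, with an interval from -0.03 to 0.70 (limma, adjusted p = 1.00). The other 3 Synpo2 probes did not repeat this size, but they are a limited check. A_52_P223127 read only from 73 to 82 and A_52_P647260 from 104 to 145. These levels include the offset of 50, which draws the ratios of dim probes toward 0. A_51_P119776 and A_52_P647260 are also assigned to another transcript record than the brightest probe. A_51_P119776 had 0.05 on the first array and 0.06 on the second, A_52_P223127 had -0.06 and 0.08, and A_52_P647260 had 0.39 and -0.19. Over the 4 probes the mean was 0.13, so the value rests on the probe that lies farthest toward the lower coordinates of this minus strand gene.

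Des, desmin, is the intermediate filament that ties dense bodies together, and it is also a gene of skeletal and heart muscle. Its probe A_51_P335969 (chr1:75363404-75363629) is printed 10 times on each array. Des averaged 789 in the RNA labelled knockout and 653 in wild type RNA in replicate 1, and 665 in knockout and 802 in wild type in replicate 2. The ratios of 0.27 and -0.27 cancelled to 0.00099 ± 0.38, with an interval from -0.52 to 0.52.

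**Figure D2:**
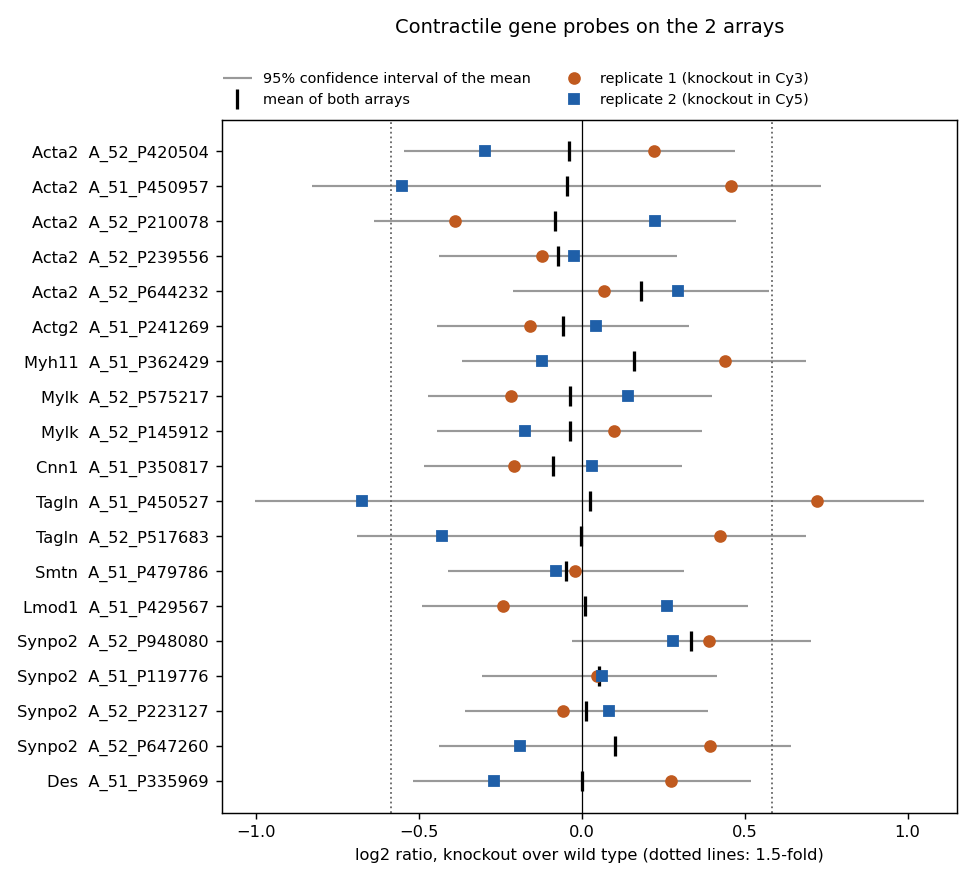
Log2 ratio of knockout RNA over wild type RNA for the 19 tested probes, with replicate 1 as circles, replicate 2 as squares, the mean as a bar and its 95% confidence interval as a line; dotted lines mark 1.5-fold. The 2 arrays lie on opposite sides of 0 for 14 of the 19 probes, and the means stay close to 0.

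Across the 19 probes, 14 had opposite genotype signs on the 2 arrays, 3 were higher in knockout on both (17.4% of all probes were) and 2 were lower on both (18.8%). The 14 are probes that kept the same dye direction. Of them, 8 were brighter in Cy3 on both arrays (33.9% of all probes) and 6 were brighter in Cy5 on both (30%). The mean over both arrays of the Cy5 over Cy3 ratio is called the dye part here, and the mean of the knockout over wild type ratio the genotype part. Dye and differences between RNA extracts cannot be told apart in the dye part. The median size of the dye part was 0.18 in the member probes, against 0.11 over all probes, and that of the genotype part was 0.050, against 0.065 over all probes. A dye term could not be added to the fit, since 2 arrays leave 1 residual degree of freedom. Of the 95% confidence intervals, 12 of 19 lay within 1.5-fold and 18 of 19 within 2-fold either way. These intervals hold for 1 probe at a time and are no detection limits, since far larger differences also went uncalled. Myh4, with ratios of 2.02 and 2.35, had an adjusted p of 0.78 by limma. The smallest limma adjusted p over all probes was 0.60.

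The repeated spots of Acta2 and Des show how far the ratio of a probe varied over an array. On the first array the 10 Acta2 spots ran from -0.011 through a median of 0.072 to 0.70, with 9 above 0. On the second they ran from -1.06 through a median of -0.14 to -0.017, with 0 above 0. Most Acta2 spots were therefore near 0 and a few far from it, and these few lay toward the ends of the 532-row grid, though not every spot there was among them. In rows 92, 125 and 498 of replicate 1 the ratios were 0.55, 0.70 and 0.58, whereas rows 283 and 291 gave 0.012 and 0.017. In replicate 1 the spot in row 510 had 0.18. In replicate 2 the spots in rows 92, 125 and 510 had -0.68, -0.61 and -1.06, and the spot in row 498 had -0.062. Des spots were also farther from 0 in most of the end rows. Those in rows 37, 98, 106 and 522 of replicate 1 had between 0.537 and 0.545, and the other 6 had between 0.0068 and 0.16. In replicate 2 the Des spots in rows 37, 98 and 522 had -0.58, -0.56 and -0.51, and the other 7, row 106 among them at -0.20, had between -0.21 and -0.022. Other member probes stand at 1 place each, so that place and gene cannot be told apart for them. The scanner software's own ratios, which are detrended over the surface, had a smaller spread over the 10 spots in each case. For Acta2 the SD was 0.12 with them and 0.27 without in replicate 1, and 0.30 with them and 0.36 without in replicate 2. For Des it was 0.092 with them and 0.23 without in replicate 1, and 0.13 with them and 0.20 without in replicate 2.

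**Figure D3:**
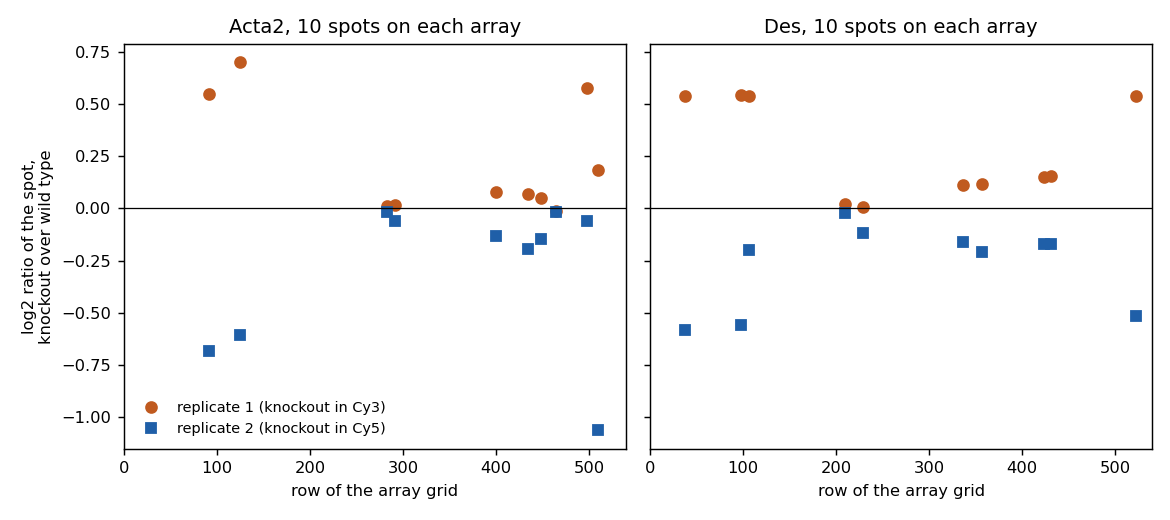
Log2 ratio of knockout RNA over wild type RNA in each of the 10 spots of Acta2 (left) and Des (right), against the row of the array grid, with replicate 1 as circles and replicate 2 as squares. Spots in rows 209 to 465 lie between -0.21 and 0.16 on both arrays. The spots nearer the ends are mixed: many lie beyond 0.5 in size, above 0 in replicate 1 and below it in replicate 2, but Acta2 in row 498 of replicate 2 (-0.062) and in row 510 of replicate 1 (0.18) and Des in row 106 of replicate 2 (-0.20) do not.

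On the scanner software's processed ratios, contractile genes gave the same picture. By limma on these ratios 0 of 19 member probes were called, beside 80 of all probes (0.275%), and each member had an adjusted p of 1.00. Synpo2 was again the 1 gene higher on both arrays (20.2% of all genes were), at 0.13 and 0.43. Smtn and Cnn1 were lower on both (21.1% of all genes were), Smtn at -0.12 and -0.13 and Cnn1 at -0.012 and -0.033. The processed ratios of Tagln were 0.38 and -0.55 at its brightest probe, still opposite in genotype, and 0.020 and -0.14 at A_52_P517683. With the processed ratios 0 member probes were at least 1.5-fold brighter in the same dye on both arrays. That count was also 0 with outlier spots kept and with the array surface removed.

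Genes that work beside the 10 had medians as near to 0. Of 26 further contractile and dense plaque genes, 1 was higher on both arrays, 5 were lower and 20 went opposite ways, with a median of -0.014. Hspb1, a small heat shock protein of muscle, had 0.66 and 0.08. Tln1, talin, which links integrins to actin, had -0.09 and -0.02, and Tpm1, a tropomyosin that lies along the actin filament, had -0.011 and -0.12. Pdlim3, a scaffold of alpha-actinin, had -0.02 and -0.19. None of the 26 was called by limma.

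Regulators of contraction held the widest value among the smooth muscle lists. Of 22 measured, 3 were higher on both arrays, 3 lower and 16 opposite, with a median of -0.013 and 0 calls. These counts depended on the processing: 8 were higher on both arrays and 4 lower with the processed ratios. With the array surface removed, 8 were higher and 3 lower. Gucy1a1, a subunit of the nitric oxide receptor that relaxes smooth muscle, had 0.75 on the first array and 0.56 on the second, a mean of 0.66 ± 0.13 (limma, adjusted p = 1.00). Irag1, a target of the kinase downstream of that receptor, had 0.45 and 0.12. Tacr2, the neurokinin receptor of gut muscle, had -0.22 and -0.13, and Itpr1, a calcium release channel, had -0.07 and -0.04. Of 10 measured transcription regulators of smooth muscle, 2 were higher on both arrays, 3 lower and 5 opposite, with a median of -0.016. Mef2c had 0.20 and 0.48, and Srf, the factor through which many contractile genes are driven, had 0.06 and 0.16. Mrtfb, a coactivator of Srf, had -0.12 and -0.06, and Nkx2-3, a homeobox factor of gut mesenchyme, had -0.03 and -0.51.

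The other cells of the gut wall gave no list-wide difference either. Interstitial cells of Cajal had 1 of 5 markers higher on both arrays, Kit at 0.09 and 0.02, and 4 opposite. Enteric neurons had 8 of 11 markers measured, 2 of them lower on both arrays and 6 opposite, with a median of -0.084. The 2 were Vip, a relaxing transmitter of gut muscle, at -0.42 and -0.13, and Elavl4 at -0.20 and -0.0014. All 5 markers of enteric glia went opposite ways. Of 6 fibroblast genes 1 was lower on both arrays, Col3a1 at -0.18 and -0.17, and 5 went opposite ways. Endothelium had Kdr (-0.10 and -0.08) and Tek (-0.22 and -0.0016) lower and 3 opposite, and pericytes had Rgs5 (0.17 and 0.013) higher, Kcnj8 (-0.07 and -0.14) lower and 3 opposite. As for the tissue label, 8 of 8 epithelial markers were well above background for both genotypes. Of these, Krt8, Cldn7 and Cdx1 were higher on both arrays, by at most 0.33 on either, Vil1 was lower (-0.11 and -0.014) and 4 went opposite ways, with a median of -0.014.

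Skeletal muscle markers stood apart from the smooth muscle genes. This list was chosen with earlier results of these data known, so its counts describe the arrays and are no test. All 12 were measured, with a median of 0.40. In knockout RNA 9 were higher on both arrays (16.9% of all genes were), 2 lower (18.1%) and 1 opposite. The 2 lower were Ckm (-0.014 and -0.13) and Acta1 (-0.13 and -0.0062). Of the 12 markers, 5 were at least 1.5-fold higher on both arrays, beside 30 of all 18988 genes (0.158%), yet limma called 0. Myh4, a fast myosin heavy chain, had 2.02 and 2.35, and the fast troponins Tnni2 and Tnnc2 had 0.99 and 0.82, and 1.62 and 0.74. Myh1, another fast heavy chain, stayed below the well-above-background mark in wild type RNA on each array. Its ratios were 0.73 and 0.82, 1.71-fold in the mean with wild type taken at its measured level (limma, adjusted p = 1.00). The offset draws the ratios of such dim probes toward 0, so this fold does not give the size of the difference. With the processed ratios the same Myh1 probe had 3.01 on the first array and 3.12 on the second (limma, adjusted p = 5.0e-07). In knockout RNA 12 of the markers were well above background on both arrays, and in wild type RNA 8 were. Summed over the 12 markers, intensity on the first and second array was 4244 and 3974 in the RNA labelled knockout. In the RNA labelled wild type it was 2710 and 2622, so the knockout sum was higher on each array. Summed over the 10 smooth muscle genes it was 143052 and 129039 in the RNA labelled knockout. In the RNA labelled wild type that sum was 134799 and 142705, so knockout was higher on the first array and lower on the second. Such sums weigh bright probes most and do not stand for each gene. To the smooth muscle sum of knockout RNA in replicate 1, Cnn1 gave 35594 and Tagln 35390, and Smtn 241. With the processed ratios limma called 8 of the 12 genes, each by its brightest probe, and the median was 1.40. Beside this stand 80 of all 29047 probes (0.275%), a share of probes and not of genes. Heart muscle had 5 of 6 markers measured, Tnnt2 higher on both arrays (0.60 and 0.17), Tnni3 lower (-0.10 and -0.15) and 3 opposite. Des, which skeletal muscle shares, was opposite on the 2 arrays, and the part of skeletal muscle RNA in its ratio was not tested.

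**Figure D4:**
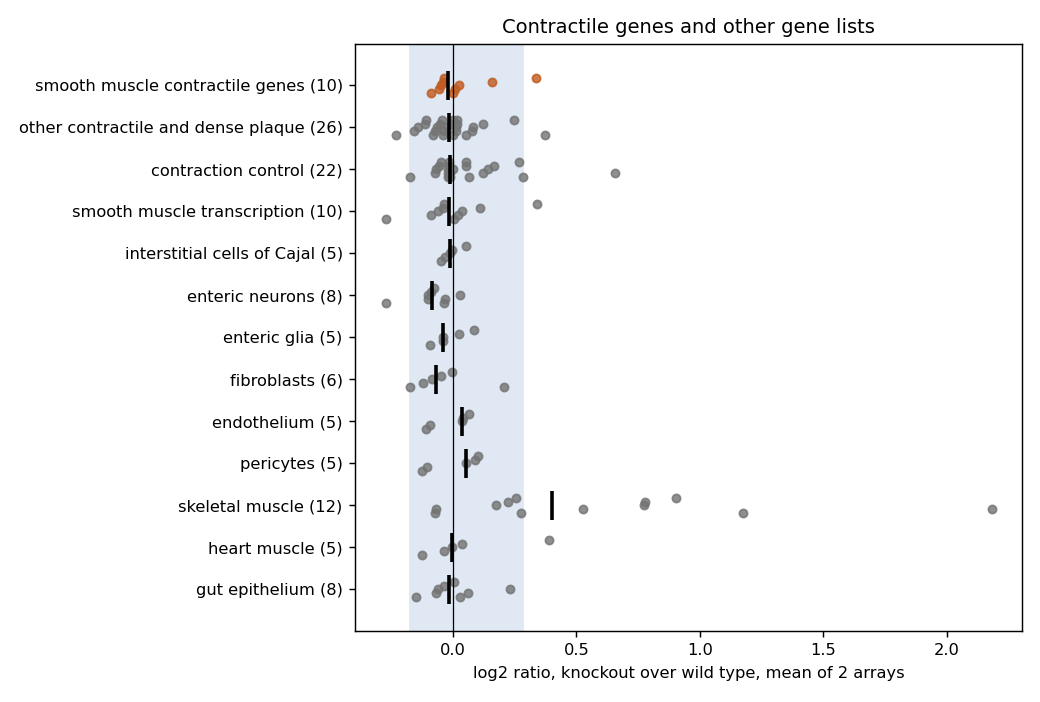
Mean log2 ratio over 2 arrays of knockout RNA over wild type RNA, with 1 point per gene by its brightest probe, a bar at each list's median, the number of genes measured in brackets, and shading from the 5th to the 95th percentile of all genes (-0.18 to 0.28). The contractile genes sit within the shaded range except for Synpo2, and skeletal muscle is the 1 list with a median outside it.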

How the data were processed

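Both arrays lie on 1 slide, which leaves slide effects untested. Per the file headers, the authors' deposited intensity values are spot means and local background medians from Agilent Feature Extraction 11.5.1.1, while the submitters' processing notes name version 9.5. The deposited log10 ratio is processed Cy5 over processed Cy3, after background subtraction, surface detrending and dye normalization, per the file headers. A deposited p-value per spot comes from the same software and was not used for calls. The deposited value table holds those log10 ratios, rounded and not turned for the dye swap.

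Spots marked as outliers (133 and 222) were left out. Background was corrected by normexp with offset 50, ratios were normalized by loess, spots were averaged per probe, and ratios were turned to knockout over wild type (R 4.3.3, limma 3.58.1). Probes entered the test if 1 genotype was well above background in both hybridisations. limma's lmFit and eBayes tested the mean against 0, and the steps were tested on simulated data. Symbols of 31441 spots were updated from a RefSeq table (GRCm38.p6). The brightest tested probe stands for a gene. Where a gene was not well above background in one genotype, its bound used channel levels after Aquantile normalization and stays open to dye bias. All 10 members are named, and of each other list up to 4 genes that went the same way on both arrays, by the smaller of their ratios. The 2 skeletal muscle markers lower on both arrays are named besides. The members and lists were chosen with earlier results of these data known. Alternatives covered background, normalization, array surface, marked spots, the dim probe filter, the fold threshold, the choice of probe and each array alone. The sequences of 5 of the 20 member probes are printed, and the others are not reported here.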

Additional observations from a re-analysis of the deposited data

How the results depend on the processing

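No member probe was called under any alternative with a test, and the count of members at least 1.5-fold apart stayed at 0, also at 1.3-fold and 2-fold. Calls over all probes moved to 30 with a normexp offset of 0, to 80 with the processed ratios and with the deposited value table, and to 9 with the array surface removed. Genes lower on both arrays became 2 with the processed ratios, with median centring and with the mean of the probes. The members' median ran from -0.024 to 0.10 over the single arrays, and was 0.047 with outlier spots kept. Ratios near 0 changed sign, all uncalled, and the cause was not tested. With outlier spots kept, Acta2 was at 0.056, Cnn1 at 0.038, Mylk at 0.079, Des at -0.031 and Lmod1 at -0.023. With the processed ratios Actg2 was at 0.022, Tagln at -0.086, Des at -0.023 and Lmod1 at -0.033. With median centring Tagln was at -0.044, Des at -0.027 and Lmod1 at -0.043. With the surface removed Tagln was at -0.059, Des at -0.0085 and Lmod1 at -0.0022, and with offset 0 Des was at -0.0089 and Lmod1 at -0.0044. The mean of Myh11, Smtn and Synpo2 kept its sign under every alternative that used both arrays. Synpo2 moved to 0.13 as the mean of its 4 probes. With median centring Smtn went opposite ways on the arrays (0.12 and -0.23). The genes lower on both were then Actg2 (-0.042 and -0.18) and Cnn1 (-0.27 and -0.049). Directions in the other lists moved too. With the processed ratios Tln1 was higher on both arrays (0.086 and 0.0093), and Itpr1, Srf, Kit, Cldn7, Cdx1 and Vil1, among others, went opposite ways. Hspb1, Gucy1a1, Irag1, Tacr2, Mef2c, Vip and Col3a1 kept their direction there. Of the epithelial markers, 0 were then higher on both arrays. Each ratio sets both genotypes side by side on 1 array, so the test is paired by array. With 2 arrays the precision of each ratio is limited, and the dye and genotype parts of a single array cannot be told apart.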

Other observations

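One Acta2 spot stood apart in its raw signal. At row 510 and column 82 of replicate 2 the raw Cy5 intensity, which there holds the RNA labelled knockout, was 10838, and at the 9 other spots of the same probe it ran from 16674 to 25162. The raw Cy3 intensity of that spot, the RNA labelled wild type, was 26556, within the 23300 to 31341 of the others. The scanner software did not mark this spot, and its log2 ratio of -1.06 entered the Acta2 mean.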
